A study of Mus musculus and Rattus norvegicus with 35 samples.

Results

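The heat shock proteins and the DnaJ (Hsp40) cochaperones were taken as every gene in the mouse and rat expression tables whose symbol starts with Hsp or Dnaj, together with every circular RNA assigned to such a host gene. This gave 75 of 24601 mouse genes and 73 of 22409 rat genes. The mouse set held 30 Hsp symbols and 45 Dnaj symbols, of which 4 were Dnaja, 13 Dnajb and 28 Dnajc. Every rat member had a mouse counterpart by symbol, while Hspa1a and Dnajc19 were members in mouse and not in rat. Among the circular RNAs, 70 of 28482 in mouse came from 22 member hosts and 56 of 18075 in rat came from 25. A prefix is not a function, and a few members are not chaperones: Hspg2 encodes the basement membrane proteoglycan perlecan, Hspb11 a subunit of the intraflagellar transport machinery, and Hspbp1 and Hspbap1 proteins that bind Hsp70 and a small heat shock protein.

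The study profiled linear and circular RNA in mouse tissues, mouse hippocampus through development, hippocampal compartments of mouse and rat, and rat neuron cultures under a drug that raises activity. All mice were C57BL/6. Brain, heart, liver, lung and testis each had 1 library from 14-week and 2 libraries from 20-week animals, and the hippocampus was sampled at E18, P1, P10 and P30 with 2 libraries per age. A hippocampal homogenate, a hippocampal synaptosome preparation, and the neuropil and somata layers of CA1 had 1 library each, all at 4 weeks. Rats were Sprague Dawley. Rat CA1 neuropil and somata at 4 weeks had 1 library each, and dissociated hippocampal neurons kept for 28 days in vitro had 2 libraries with water as the control and 2 after 12 h in 40 µM bicuculline, a blocker of GABA-A receptors. The labels do not say that replicates came from separate animals or cultures, so the p-values measure the spread between these samples, which may be technical. Levels are in TPM, a transcript unit scaled for length and library total, in which levels of different genes can be compared.

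Hsp70 proteins hold and refold other proteins by cycles of ATP binding and hydrolysis, DnaJ proteins bring them their clients and start the hydrolysis, and Hsp110 and other exchange factors reset the cycle. Hsp90 matures kinases and receptors, small heat shock proteins keep unfolded clients soluble, Hsp60 with Hsp10 forms the folding chamber of mitochondria, and BiP (Hspa5) with Grp94 (Hsp90b1) serves the endoplasmic reticulum (ER). In neurons the best known DnaJ members are auxilin (Dnajc6), which uncoats clathrin-coated vesicles, and cysteine string protein (Dnajc5), which guards the release machinery at synaptic vesicles.

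The labelled tissues carried their defining markers. Summed TPM of the male germ cell markers lay between 37250 and 56725 in testis and between 6.08 and 63.6 in the other 4 tissues, that of the cardiomyocyte markers between 68217 and 78006 in heart, and that of the neuron markers between 2864 and 3236 in brain. Members together took 1.33% to 1.78% of all TPM in brain, 1.60% to 1.76% in testis, 1.03% to 1.27% in heart, 0.769% to 0.985% in lung and 0.666% to 0.848% in liver. The TPM tables keep no read depth. In the circular RNA tables the recovered reads ran from 1231 to 43523 per mouse library, the poly(A) brain library left out, and from 8879 to 24727 per rat library.

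Promoter sequence is shown for genes of the heat shock and ER stress programmes, whose levels are described below. No test links a promoter element to a level here. RefSeq windows of 250 bases before a transcript start, on assembly GRCm38.p6, were at hand for 61 of the 75 mouse members, in 78 windows. They were searched on both strands for the heat shock element of 2 units, GAANNTTC or TTCNNGAA, and for the ER stress element, CCAAT and CCACG with 9 bases between them. Capitals mark each hit. Neighbouring heat shock hits share a unit where 3 units run together, as GAANNTTC followed by NNGAA or TTCNNGAA followed by NNTTC. The 2-unit element was in 16 member windows of 14 genes (20.5%) and in 12.8% of all 32851 windows. The 3-unit element was in 4 member windows (5.13%), those of Dnajb6, Hspd1 and Hspe1, and in 0.466% of all windows. The ER stress element was in 3 member windows (3.85%), those of Dnajc3, Hsp90b1 and Hspa5, and in 0.113% of all windows. A match describes letters and is not evidence of binding.

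The inducible Hsp70 genes Hspa1b (chr17:34959239-34959488, minus strand) and Hspa1a (chr17:34972157-34972406, minus strand) are near-identical copies, and their windows differ at 3 of 250 bases. Hsph1, an Hsp110 exchange factor (chr5:149636316-149636565, minus strand), also holds 1 heat shock element. The window of Hspd1, the Hsp60 gene (chr1:55087933-55088182, minus strand), overlaps that of Hspe1, the Hsp10 gene (chr1:55087898-55088147, plus strand), and the same 3 overlapping heat shock hits lie in both. Each is written 5′ to 3′ on the strand of its gene.
Hspa1b: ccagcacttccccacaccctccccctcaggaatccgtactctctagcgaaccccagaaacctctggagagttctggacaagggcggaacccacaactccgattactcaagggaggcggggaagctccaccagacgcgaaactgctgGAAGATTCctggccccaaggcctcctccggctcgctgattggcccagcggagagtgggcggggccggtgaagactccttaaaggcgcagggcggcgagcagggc
Hspa1a: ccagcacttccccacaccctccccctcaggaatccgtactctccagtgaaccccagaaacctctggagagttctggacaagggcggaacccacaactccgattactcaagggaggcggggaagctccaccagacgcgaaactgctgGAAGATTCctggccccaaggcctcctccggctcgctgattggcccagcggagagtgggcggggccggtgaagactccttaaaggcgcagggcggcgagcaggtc
Hsph1: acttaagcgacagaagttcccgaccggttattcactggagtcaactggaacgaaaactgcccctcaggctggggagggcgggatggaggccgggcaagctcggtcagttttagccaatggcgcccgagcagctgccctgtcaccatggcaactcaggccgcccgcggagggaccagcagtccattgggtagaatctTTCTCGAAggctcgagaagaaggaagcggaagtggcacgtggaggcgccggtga
Hspd1: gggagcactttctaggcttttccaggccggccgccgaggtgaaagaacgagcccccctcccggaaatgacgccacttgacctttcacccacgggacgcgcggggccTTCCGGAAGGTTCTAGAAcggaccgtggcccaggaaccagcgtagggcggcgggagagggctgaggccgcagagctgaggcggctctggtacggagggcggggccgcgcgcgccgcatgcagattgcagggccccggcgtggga

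The windows that hold the ER stress element belong to BiP (Hspa5, chr2:34771840-34772089, plus strand), to Grp94 (Hsp90b1, chr10:86705445-86705694, minus strand, 2 hits) and to Dnajc3 (chr14:118937682-118937931, plus strand), which encodes the BiP cochaperone P58IPK.
Hspa5: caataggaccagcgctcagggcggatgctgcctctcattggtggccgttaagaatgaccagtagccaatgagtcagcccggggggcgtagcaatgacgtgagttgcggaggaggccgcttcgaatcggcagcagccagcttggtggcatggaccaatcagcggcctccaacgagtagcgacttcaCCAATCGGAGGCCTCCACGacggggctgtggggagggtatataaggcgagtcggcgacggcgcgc
Hsp90b1: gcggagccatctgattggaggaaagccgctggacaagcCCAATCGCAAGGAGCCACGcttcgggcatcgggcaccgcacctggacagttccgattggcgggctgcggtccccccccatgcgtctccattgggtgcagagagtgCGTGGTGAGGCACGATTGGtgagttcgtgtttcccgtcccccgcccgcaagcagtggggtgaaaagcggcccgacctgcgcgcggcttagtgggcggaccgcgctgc
Dnajc3: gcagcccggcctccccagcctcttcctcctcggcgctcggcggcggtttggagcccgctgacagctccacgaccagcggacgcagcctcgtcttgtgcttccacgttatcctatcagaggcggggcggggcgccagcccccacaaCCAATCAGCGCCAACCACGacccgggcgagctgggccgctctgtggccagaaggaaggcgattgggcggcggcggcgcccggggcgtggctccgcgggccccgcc

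By mean TPM the highest tissue was testis for 26 members, brain for 20, heart for 15, lung for 8 and liver for 6. In 22 members all 3 testis libraries lay above the 12 libraries of the other tissues, beside 21.1% of all genes tested, and in 10 they lay below them, beside 14.5%. Against the mean of the other 4 tissues, limma called 31 members higher in testis and 32 lower at a Benjamini-Hochberg adjusted p under 0.05, and 12 did not pass. Over all 18966 genes tested 32.9% were called higher and 47.8% lower. The median log2 difference of the members was -0.22 and that of all genes -0.41. From bulk RNA, fewer cells of a type and less RNA per cell cannot be told apart.

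For 8 members the lowest testis library held at least 10 times the highest library of any other tissue: Dnajb3, Dnajb7, Dnajb8, Dnajb13, Dnajc5b, Dnajc5g, Hspa1l and Hspb9. These are 8 of 75 members, a share near the 8.81% of all genes tested that did so. Values below are given in the order of the 20-week libraries and then the 14-week library. Hspb9, a small heat shock protein of germ cells, had 845, 809.9 and 1942 TPM in testis and at most 2.27 elsewhere (log2 difference 9.28, SE 0.31, adjusted p = 1.72e-12). Dnajb8, a DnaJ protein that holds aggregation-prone clients, had 409, 391 and 362 TPM in testis and at most 0.375 elsewhere (8.50, SE 0.13). It passed the filter of 1 TPM only through the testis libraries, so no p-value is given. No library of another tissue came near the testis libraries for either gene.

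Cysteine string protein showed an exchange of forms. Dnajc5b, its testis form, had 539, 488 and 486 TPM in testis and at most 1.69 elsewhere. Dnajc5g, the gamma form, had 107, 102 and 128 TPM in testis and was listed at 0 in 10 of the other 12 libraries. The neuronal form Dnajc5 was lowest in testis, with 22.5, 26.0 and 18.0 TPM against 292, 278 and 332 in brain (testis log2 difference -1.95, adjusted p = 2.51e-08).

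The Hsp70 genes also divided between testis and the other tissues. Hspa2, the Hsp70 of meiotic and later germ cells, had 639, 649 and 442 TPM in testis (5.77, SE 0.17, adjusted p = 5.8e-13), with brain next at 34.5 to 47.0. Hspa1l, the testis gene next to Hspa1a, had 133, 143 and 97.1 TPM in testis and at most 3.38 elsewhere. Hspa4l, an Hsp110 member, had 1357, 1381 and 978 TPM in testis and 142 to 303 in brain (3.91, adjusted p = 4.89e-10). These 3 genes had no overlap between testis and any other tissue. Against them, Hspa8, the constitutive Hsc70 that is the most abundant Hsp70 in every other tissue, had 278, 335 and 215 TPM in testis, below its lowest value elsewhere, 1321 in liver (fell by 3.05 on the log2 scale, SE 0.16, adjusted p = 4.41e-10).

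Cytosolic Hsp90 split between its copies. Hsp90aa1, the inducible alpha form, had 4780.0, 5016 and 4154 TPM in testis, within the brain range of 2219.7 to 5106 and above heart, liver and lung (2.25, SE 0.29, adjusted p = 6.57e-06). Hsp90ab1, the constitutive beta form, had 188, 193 and 82.9 TPM in testis, below all 12 other libraries, which ran from 566 to 1530.1 (fell by 2.74, SE 0.22, adjusted p = 5.11e-08). In testis the alpha form was therefore above the beta form in each library, as it was in each brain library, while in each heart and liver library the beta form was the higher. The mitochondrial pair was low too: Hspd1 had 48.6, 53.7 and 22.3 TPM in testis and at least 108 elsewhere, and Hspe1 had 51.3, 53.3 and 44.8 against at least 87.4. Hspb8, the small heat shock protein of the Bag3 pathway, was the member furthest down in testis, at 2.57, 0.788 and 0.801 TPM against 26.7 or more elsewhere (fell by 5.78, adjusted p = 1.25e-11).

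Among the DnaJ proteins, Dnajb3 (1128, 1163 and 1061 TPM), Dnajb7 (343, 360.4 and 329) and Dnajb13 (319, 279 and 334), a protein of the sperm axoneme's radial spokes, were all above every other library. Lung was next for Dnajb13, at 12.3 to 13.9 TPM, and it was at most 1.90 in brain, heart and liver. Dnajb1, the inducible partner of Hsp70, had 151, 147 and 279 TPM in testis and at most 89.2 elsewhere (2.73, adjusted p = 9.76e-08), and Dnajb6 and Dnaja4 were also highest there. Of 31 cytosolic partners of the heat shock response, such as the cochaperones Bag3 and Stip1 and the chaperonin subunits, 14 were higher and 11 lower in testis, and of 9 synaptic partners of auxilin and cysteine string protein 8 were lower. The testis calls held under the scalings tried: 31 members were higher and 27 lower in all of 3 settings, which were the values as deposited, libraries set to equal medians, and the 20-week libraries alone. Over all genes those shares were 32.4% and 43.6%.

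**Figure D1:**
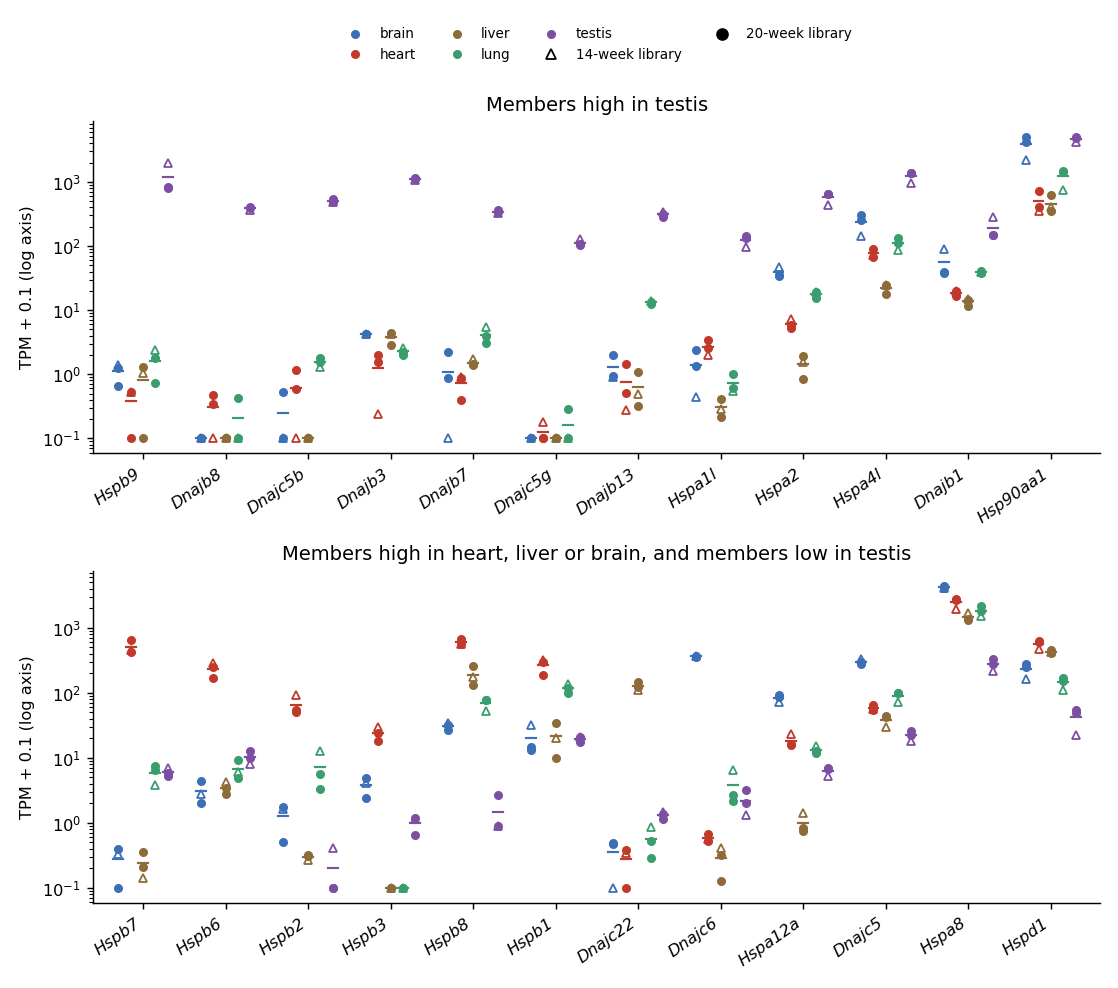
TPM plus 0.1 (log axis) of 24 members in brain, heart, liver, lung and testis; circles are 20-week libraries, triangles 14-week libraries and bars tissue means. In the upper plot the testis libraries of Hspb9, Dnajb8 and Dnajc5b lie far above all others, and in the lower plot the heart libraries of Hspb7, the liver libraries of Dnajc22 and the brain libraries of Dnajc6 stand alone.

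Of the small heat shock proteins, Hspb1, Hspb2, Hspb3, Hspb6, Hspb7 and Hspb8 were above every other library in heart, while Hspb9 was at most 0.430 TPM there. Hspb7, the cardiovascular small heat shock protein, had 658, 425 and 449 TPM in heart and at most 7.46 elsewhere (7.49, SE 0.19, adjusted p = 2.1e-12). Hspb6 had 247, 170.2 and 283 TPM against at most 12.5 (5.24, adjusted p = 3.35e-10). These were the members at least 10 times higher in the lowest heart library than in any other tissue, where 0.664% of all genes were. Hspb2 (53.6, 49.8 and 91.4 TPM, log2 difference 4.91), Hspb3 (23.9, 17.7 and 30.1, log2 difference 3.83) and Hspb8 (659.6, 570.5 and 564, log2 difference 4.28) followed. Hspb1, Hsp27, had 301, 189 and 316 TPM in heart, above lung at 101 to 135 and the others below that.

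The mitochondrial chaperones were high in heart as well. Hspa9, mortalin, had 772, 744 and 586 TPM (1.55, adjusted p = 1.51e-06) and Hspd1 had 618, 601 and 464 (1.87, adjusted p = 9.54e-06), both above every other library. Dnaja3, their mitochondrial DnaJ partner, had 163, 157 and 115 TPM. The ratio of Hspe1 to Hspd1, whose promoter windows overlap, ran from 0.635 to 2.01 over 27 mouse libraries and from 0.870 to 1.13 over 6 rat libraries. Of the 9 mitochondrial folding partners, such as Trap1 and Lonp1, 5 were higher in heart and none lower. In all, 27 members were called higher and 26 lower in heart, beside 19.7% and 45.1% of all genes, with medians of -0.10 for members and -0.38 for all genes. The 3 heart libraries lay above all others for 11 members, beside 5.22% of genes, and below for 3, beside 2.07%. With equal medians 30 members were higher and 19 lower, beside 5090 and 6096 of the 18966 genes. The calls over all genes moved from 30.4% to 45.5% higher. Under every setting 27 members were higher and 19 lower, beside 18.6% and 32.1% of all genes.

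In brain the clearest member was auxilin. Dnajc6 had 356, 365 and 363 TPM in brain and at most 6.30 elsewhere (7.38, SE 0.23, adjusted p = 2.67e-12), the 1 member at least 10 times higher there, where 4.05% of all genes were. Dnajc5 had 292, 278 and 332 TPM in brain against at most 99.1 (2.69, adjusted p = 1.34e-09). Hspa12a, a distant Hsp70 relative, had 86.4, 92.8 and 73.0 TPM against at most 22.8 (3.45), and Dnajb5 had 72.6, 80.6 and 165 against at most 43.3 (3.28). Dnajc27, a Rab-like protein with a J domain, had 98.2, 104 and 109 TPM with testis next at 66.1 to 91.2, and Dnajc18 had 81.5, 85.8 and 94.5. All of these were above every other library. Hspa8 was highest in brain, at 4373, 4143 and 4045 TPM with heart next at 1949 to 2762 (1.87, adjusted p = 1.56e-07), and Hsph1 had 169, 135 and 134 TPM, above all other libraries.

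How many members brain counted depended on the scale. As deposited, 32 were higher and 20 lower, beside 45.4% and 28% of all genes, with medians of 0.24 for members and 0.34 for all genes. With libraries set to equal medians 12 were higher and 37 lower, beside 4594 and 9342 of the 18966 genes. The median of all genes moved to -0.48. The brain libraries lay above all others for 12 members, beside 18.6% of genes, and below for 0, beside 1.48%. The 12 that were higher under every setting, beside 24.2% of all genes, were Dnajb5, Dnajc5, Dnajc6, Dnajc17, Dnajc18, Dnajc27, Hsp90aa1, Hsp90ab1, Hspa8, Hspa12a, Hspa14 and Hsph1. The members lower under every setting were 19, beside 25.8%, and those with the largest differences were genes high in testis or heart, led by Hspb7 (fell by 3.44) and Hspg2 (fell by 3.08). All 9 synaptic partners, such as Snap25, Synj1 and the clathrin chains, were higher in brain.

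Liver had 1 form of its own. Dnajc22, a membrane DnaJ protein of vesicle uptake, had 146, 123 and 110.3 TPM in liver and at most 1.36 elsewhere (6.43, SE 0.16, adjusted p = 6.15e-13), where 1.87% of all genes reached 10 times. ER members went both ways. Dnajc3 had 215, 130.1 and 109.6 TPM in liver and 137 to 152 in lung (liver difference 1.23, adjusted p = 7.18e-06), Hsp90b1 had 1325, 732 and 983 in liver against 317 to 952 elsewhere (0.76, adjusted p = 0.00345), and Hspa5 had 975, 537 and 629 against 326 to 725 (0.45, adjusted p = 0.0267). The liver libraries overlapped other tissues for these 3 genes, and the first liver library was the highest of the 3 for each. The ER DnaJ genes Dnajc10, at 19.9 to 26.8 TPM in liver against 32.6 or more elsewhere (fell by 1.70, adjusted p = 3.05e-08), and Dnajb14, at 8.84 to 9.48 against 10.1 or more (fell by 1.44, adjusted p = 5.44e-08), lay below every other tissue. With equal medians Dnajc10 still passed (-0.40, adjusted p = 0.0379) and Dnajb14 did not (-0.14, adjusted p = 0.334). Of 27 ER folding and stress partners, such as Calr and Pdia4, 15 were higher in liver and 4 lower. Over the members 8 were higher and 52 lower as deposited, beside 10.9% and 72.6% of all genes, with medians of -1.31 and -1.02. The liver libraries lay above all others for 1 member, beside 5.07% of genes, and below for 27, beside 21.2%. With equal medians 26 members were higher and 24 lower, beside 7670 and 4333 of the 18966 genes. The calls over all genes moved from 13.0% to 63.9% higher and the median of all genes to 0.28. Under every setting 8 members were higher and 24 lower, beside 10.4% and 22.8%.

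Lung held no member at least 10 times above the other tissues, where 0.765% of all genes were. Hspa12b, an endothelial Hsp70 relative, had 54.7, 45.5 and 57.2 TPM in lung against at most 29.2 (3.28, adjusted p = 1.17e-09). The inducible Hsp70 genes were low in all 5 tissues. Hspa1a had 4.03, 9.26 and 6.39 TPM in lung, 2.91 to 7.76 in brain and at most 2.56 in heart, liver and testis (lung difference 1.58, adjusted p = 5.64e-05), and Hspa1b had 11.0, 12.8 and 7.00 TPM in lung and up to 14.0 in brain (1.46, adjusted p = 0.00233). The brain and lung libraries overlapped for both, and the liver libraries, at 2.03 to 8.91 TPM, also overlapped lung for Hspa1b. Since the 2 gene copies share most of their sequence, the split of reads between them is uncertain. Members called higher in lung were 20 and lower 21, beside 47.5% and 25.4% of all genes, with medians of 0.03 and 0.42. With equal medians 5 were higher and 48 lower, beside 4408 and 8893 of the 18966 genes, and the median of all genes moved to -0.41. The lung libraries lay above all others for 3 members, beside 16.6% of genes, and below for 2, beside 0.68%. The 5 higher under every setting, beside 23.2% of all genes, were Dnajc14, Hspa12b, Hspa1a, Hspb1 and Hspg2, and 21 were lower, beside 24.2%.

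Setting the libraries of a comparison to equal medians moved the share of higher calls over all genes from 61.9% to 33.0% in brain and from 65.1% to 33.1% in lung, and from 40.8% to 42.5% in testis. With the 20-week libraries alone, members called higher and lower were 32 and 31 in testis, 38 and 20 in brain, 27 and 32 in heart, 11 and 56 in liver, and 24 and 26 in lung. Of all genes tested, 82.6% were called either way in testis, 77.8% in brain, 72.6% in heart, 87.1% in liver and 77.1% in lung. Higher calls were 43.7%, 63.9%, 28.8%, 12.9% and 64.3% of these, in the same order.

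In the developing hippocampus the germ-cell Hsp70 Hspa2 was the member that rose most. It had 4.98 and 5.80 TPM at E18, 9.82 and 10.3 at P1, 44.2 and 46.5 at P10, and 74.6 and 69.1 at P30 (P30 minus E18 3.51 on the log2 scale, SE 0.15, adjusted p = 2.3e-07). Dnaja4, a type I DnaJ partner of Hsp70, went from 4.30 and 5.10 TPM at E18 to 37.5 and 41.3 at P30 (2.83, adjusted p = 3.1e-06). Both climbed at each step with no overlap between neighbouring ages. Of the 75 members 68 passed the filter of 1 TPM in 2 of the 8 libraries, and limma called 28 of them higher at P30 and 11 lower, with 29 not passing the test. Over all 15444 genes tested 29.5% were higher and 26.8% lower, and the median difference was 0.23 for members and 0.01 for all genes. Both P30 libraries lay above both of E18 for 37 members, beside 40.3% of genes, and below for 22, beside 39.3%. The 7 members not tested were the tissue forms Dnajb7, Dnajb8, Dnajc22, Dnajc5b, Dnajc5g, Hspb7 and Hspb9.

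The synaptic DnaJ genes rose as well. Dnajc6 had 66.4 and 92.2 TPM at E18, 87.5 and 95.5 at P1, 249 and 297 at P10, and 338 and 328 at P30 (2.07, adjusted p = 8.78e-06), so that most of the difference lay between P1 and P10. Dnajc5 rose less, from 132 and 173 TPM at E18 to 214 and 215 at P30 (0.50, adjusted p = 0.0204). Dnajc27 went from 16.4 and 16.6 TPM to 101 and 83.9 (2.41, adjusted p = 7.79e-06). Of the 9 synaptic partners 6 were higher at P30 and none lower, with a median of 0.96, among them Snap25 (3.03), Synj1 (2.73) and Bsn (2.71).

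The inducible Hsp70 genes rose from a low start, and of the Hsp110 genes Hsph1 and Hspa4l rose. Hspa1b had 0.766 and 0.749 TPM at E18 and 7.48 and 5.08 at P30 (2.03, adjusted p = 6.06e-05), and Hspa1a had 0.292 and 0.455 at E18 and 3.57 and 3.74 at P30 (1.76, adjusted p = 6.31e-05). Hsph1 had 56.9 and 71.6 TPM at E18 and 152 and 188 at P30 (1.39, adjusted p = 0.00175), and Hspa4l 49.4 and 45.6 against 147 and 149 (1.62, adjusted p = 0.000121). The P30 libraries lay above the E18 libraries for all 4 genes. Hspa4, a further Hsp110 gene, had 144 and 181 TPM at E18 and 190.0 and 192 at P30 and did not pass (0.24, adjusted p = 0.33). Dnajb1, their DnaJ partner, did not follow: it had 46.3 and 48.4 TPM at E18 and 43.1 and 36.9 at P30 (-0.24, adjusted p = 0.175).

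The most abundant chaperones did not pass the test between E18 and P30. Hspa8 had 3773 and 4639 TPM at E18 and 3629 and 3946 at P30 (-0.14, SE 0.18, adjusted p = 0.52), Hsp90ab1 1211 and 1649 against 1377 and 1497 (0.02, SE 0.17, adjusted p = 0.921), and Hsp90aa1 2241 and 2089.8 against 2313 and 2590.2 (0.18, SE 0.16, adjusted p = 0.358). BiP had 333 and 384 TPM at E18 and 274 and 305 at P30 (-0.31, SE 0.19, adjusted p = 0.187), and it passed as lower with equal medians. Grp94 had 459 and 472 against 416 and 459 (-0.09, adjusted p = 0.735).

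The members that fell included the mitochondrial pair and DnaJ genes of chromatin and the ribosome. Dnajc9, a DnaJ protein that escorts histones, had 98.9 and 90.5 TPM at E18, 69.7 and 71.8 at P1, 49.5 and 41.8 at P10, and 39.8 and 38.9 at P30 (fell by 1.24, SE 0.14, adjusted p = 6.15e-05). It dropped at each step without overlap, and the 4 markers of cycling cells fell with it, from a summed 266 to 277 TPM at E18 to 8.05 to 9.18 at P30. Their part in the result was not tested. Dnajc2, the ribosome-associated zuotin, had 80.1 and 67.7 TPM at E18 and 44.7 and 36.9 at P30 (fell by 0.84, adjusted p = 0.00134). Dnaja1 went from 554 and 527 TPM to 335 and 347 (fell by 0.66, adjusted p = 0.00267), Hspd1 from 285 and 308 to 221 and 220.4 (fell by 0.42, adjusted p = 0.0137) and Hspe1 from 399 and 290.0 to 260.4 and 214 (fell by 0.52, adjusted p = 0.0332). Dnajb3 fell by 1.43 from 12.6 and 13.6 TPM, Dnajc17 by 0.94 and Hspbap1 by 0.91.

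Across the 4 ages, both libraries lay above both of the age before at every step for 6 members, Dnaja4, Dnajc12, Dnajc27, Hspa1a, Hspa2 and Hspb2, beside 5.4% of all genes tested. They lay below at every step for 2, Dnajb3 and Dnajc9, beside 4.22%. Of the 31 cytosolic partners 5 were higher at P30 and 15 lower, with a median of -0.31, and 8 chaperonin subunits were among the lower ones, from Cct4 at -1.44 to Tcp1 at -0.75. The small heat shock protein Cryab rose by 3.14. Of 26 ER partners 8 were higher and 6 lower, and of 9 mitochondrial partners none was higher and 1 lower. Cell type markers moved over the same ages: the 6 oligodendrocyte markers were all higher at P30, with a summed 39.8 to 40.1 TPM at E18 and 9035 to 10204 at P30, and all 6 astrocyte markers were higher, with 367 to 442 and 1809 to 1851 TPM. Their part in the members' values was not tested. With equal medians 24 members were higher and 19 lower, beside 4002 and 5246 of the 15444 genes, and the median of all genes moved to -0.14. Under both scalings 24 and 11 held, beside 25.9% and 26.8% of all genes. Leaving out replicate 1 of E18, replicate 1 of P30 or replicate 2 of P30 left 7 members lower in place of 11.

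**Figure D2:**
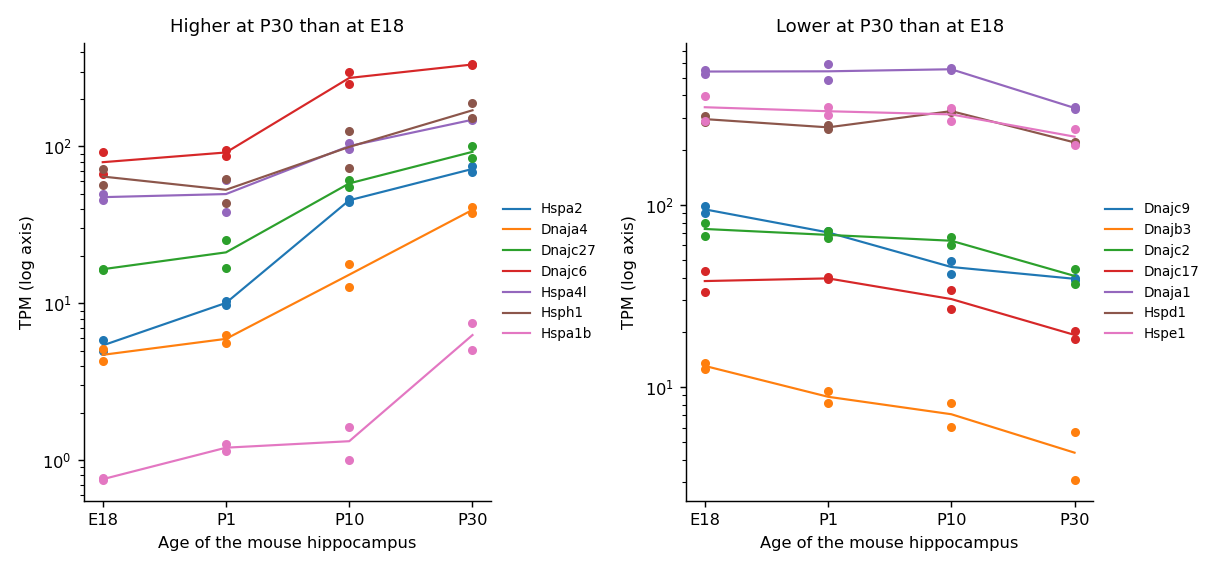
TPM (log axis) of 14 members in mouse hippocampus at E18, P1, P10 and P30; points are the 2 libraries of each age and lines join their means. Hspa2 and Dnaja4 climb at every step on the left, and Dnajc9 and Dnajb3 drop at every step on the right.

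In rat cultures no member passed the test for a change after 12 h of bicuculline in the fit with treatment as its only term, in which activity genes rose. A fit with a replicate block did call members both ways, and its counts are given with the processing alternatives below. Of 73 rat members 63 passed the filter of 1 TPM in 2 of the 4 libraries, and limma called 0 higher and 0 lower, beside 2.06% and 0.51% of the 13341 genes tested. At an unadjusted p under 0.05 there were 16 members, a count given without the share of all genes and so not read as a result. The median difference was -0.05 for members and -0.07 for all genes. In the same fit 12 of 16 immediate early genes were higher, with a median of 2.90, among them Fos (5.71, adjusted p = 0.00452) and Npas4 (7.05, adjusted p = 0.00674), and 8 of 9 later activity genes, among them Bdnf (3.72, adjusted p = 0.00309).

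BiP came nearest to the threshold. Hspa5 had 480 and 522 TPM in the control libraries and 943 and 794 after bicuculline (0.79, SE 0.14, adjusted p = 0.0584). ER DnaJ genes lay on both sides of their controls. Dnajb9 (ERdj4) had 64.5 and 57.4 TPM against 108 and 70.5 after bicuculline (0.51, SE 0.23, adjusted p = 0.295), and Dnajc1, an ER membrane DnaJ protein, had 19.9 and 15.9 against 30.9 and 28.1 (0.70). Dnajc10 (ERdj5) was below both controls, with 144 and 137 TPM against 101 and 105 after bicuculline (-0.44, adjusted p = 0.129). Hsp90b1 had 246 and 373 TPM in control and 281 and 401 after bicuculline (0.15, SE 0.26, adjusted p = 0.827), so the groups overlapped, and Dnajc3 had 53.9 and 66.8 against 55.2 and 60.5. Of 25 ER partners 2 were higher, Chac1 (2.43, adjusted p = 0.00674) and Ppp1r15a (1.68, adjusted p = 0.0295), and none lower.

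The Hsp110 genes Hspa4l and Hsph1 were also above both controls. Hspa4l had 85.8 and 104 TPM in control and 162 and 196 after bicuculline (0.91, SE 0.16, adjusted p = 0.0614), and Hsph1 had 149 and 93.5 against 334 and 173 (1.02, SE 0.37, adjusted p = 0.219). Hspa4 was close to its controls, with 207 and 205 TPM against 218 and 213 (0.06, adjusted p = 0.819). Hspa13, a microsomal Hsp70, had 128 and 112 TPM in control and 175 and 143 after bicuculline (0.40). Hsp90aa1 had 1378 and 1262 TPM in control and 1686 and 1481 after bicuculline (0.26, adjusted p = 0.352), and Dnajb1 had 49.8 and 44.5 against 57.1 and 58.1 (0.29, adjusted p = 0.315). In none of these did the groups overlap. Hspa9 had 272 and 416 TPM in control and 380.0 and 513 after bicuculline (0.39, adjusted p = 0.463), and its groups overlapped. Of 29 cytosolic partners tested 0 were called either way, with a median of 0.01, and the 8 mitochondrial partners had 0 calls.

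Members below both controls had differences of like size. Hspa12a had 97.3 and 59.0 TPM in control and 39.8 and 41.2 after bicuculline (-0.89, adjusted p = 0.143), and Dnajb14, an ER membrane DnaJ protein, had 26.4 and 27.1 against 17.6 and 18.0 (-0.56, adjusted p = 0.126). Hspb8 had 77.6 and 87.4 TPM in control and 65.1 and 55.0 after bicuculline (-0.45, adjusted p = 0.183). Over all members tested, both bicuculline libraries lay above both controls for 14, beside 20.9% of all genes, and below for 20, beside 30.5%. Without replicate 2 of the control 2 members passed as higher, Hspa5 (0.85, adjusted p = 0.0473) and Hspa4l (1.05, adjusted p = 0.0235), and 1 as lower.

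The rat entries of Hspa1b and Hspa8 limit the reading of the Hsp70 family. Hspa1b was listed at 0 in all 6 rat libraries, so its response gives no fold. Hspa8 had 1.77 and 25.7 TPM in control and 2.18 and 25.2 after bicuculline, a split by replicate number and not by treatment, and 1.62 to 25.7 over the 6 rat libraries, where the 15 mouse brain and hippocampal libraries ran from 2421 to 5239. The cause was not tested. The other members not tested in rat were Dnajb8, Dnajc22, Dnajc5b, Dnajc5g, Hspa12b, Hspb3, Hspb7, Hspb9 and Hspg2.

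**Figure D3:**
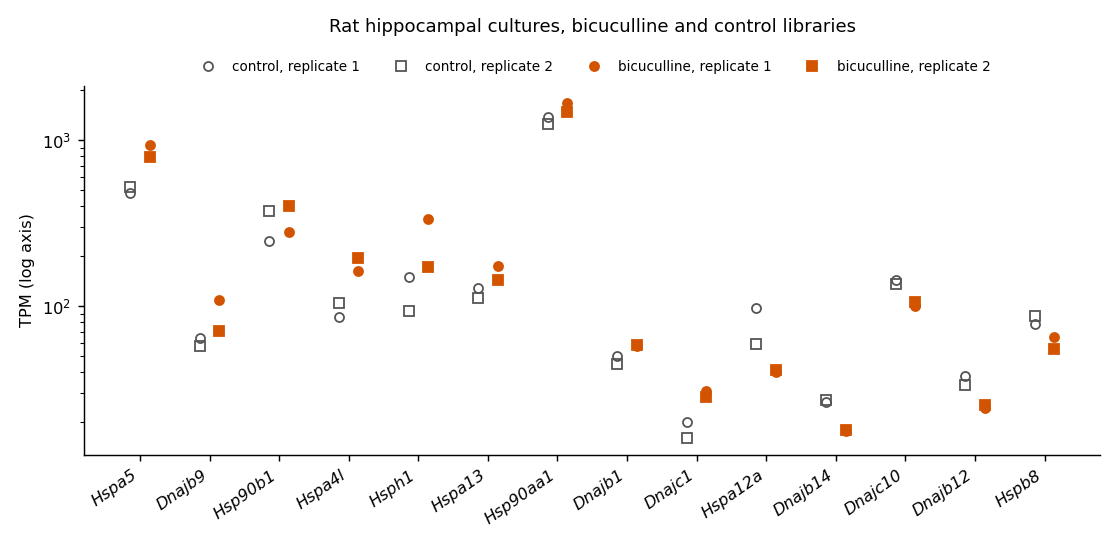
TPM (log axis) of 14 rat members in 2 control libraries (open symbols) and 2 bicuculline libraries (filled symbols), circles for replicate 1 and squares for replicate 2. Hspa5, Hspa4l and Hsph1 have both bicuculline libraries above both controls, and Hspa12a and Dnajb14 have both below.

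As deposited, chaperone RNA was mostly lower in synaptosomes than in the homogenate of the same tissue. With 1 library each there is no test, and a member counts here when its TPM plus 1 differs by more than 1.5-fold. Of 57 members at 5 TPM or more in either library 31 were lower in the synaptosome and 3 higher, beside 33.9% and 13.7% of all genes at that level. The median log2 difference was -0.60 for members and -0.29 for all genes. With both libraries set to equal medians the counts were 21 lower and 6 higher. The shares of all genes above are for the values as deposited and do not apply to those counts. Members together took 0.806% of TPM in the synaptosome and 1.38% in the homogenate.

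Dnajc7, a DnaJ protein with tetratricopeptide repeats, was furthest down at 80.7 TPM against 293 (-1.85), followed by Dnaja1 at 72.8 against 248 (-1.75). The synaptic DnaJ genes stayed within the fold: Dnajc6 had 344 TPM in the synaptosome and 378 in the homogenate, and Dnajc5 had 186 and 212. The 3 higher members were Hspb8, at 55.2 against 19.8 TPM (1.43), Dnajc3, at 70.9 against 41.2 (0.77), and Dnajc1, at 53.4 against 34.1 (0.63), and Hspa5 came next at 427 against 327 (0.38). Marker levels differed as well. The summed neuron markers were 1655 TPM in the synaptosome and 3798 in the homogenate, the astrocyte markers 8417 and 1504, with 5 of 6 past the fold, and the microglia markers 851 and 233, with 6 of 6. The 4 pyramidal CA1 markers summed to 1593 and 742 TPM, with 2 higher past the fold and 1 lower. All 5 interneuron markers (429 and 1232 TPM) and all 6 endothelial markers (20.7 and 110) were lower. Of 6 oligodendrocyte markers 2 were higher and 2 lower. The part of these marker levels in the members' values was not tested.

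CA1 neuropil, the layer of dendrites and axons, and CA1 somata, the cell body layer, differed in few members. In mouse 58 members reached 5 TPM in either layer, of which 2 were higher in neuropil and 7 lower, beside 16.2% and 5.68% of all genes. In rat 60 did, of which 4 were higher and 6 lower, beside 20% and 7.37%. Medians were -0.25 for members and -0.04 for all genes in mouse, and -0.19 and 0.03 in rat. Of the 54 members at that level in both species, Hspb1 and Hspb8 were higher in neuropil in both and 4 were lower in both, Dnajb5, Dnajc21, Hspa12a and Hsph1.

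Hspb8 had 27.6 TPM in mouse neuropil and 7.95 in somata (1.68), and 28.1 and 12.6 in rat (1.09). Hspb1 had 19.9 and 8.52 TPM in mouse (1.13) and 18.9 and 7.57 in rat (1.22). The same layers differed in glial and vascular markers. The 6 astrocyte markers were all higher in neuropil past the fold, summing to 3260 against 1277 TPM in mouse and 6342 against 2920 in rat, and so were all 6 endothelial and all 6 microglial markers in both species. Their part in these 2 members was not tested. On the side of the somata, Hsph1 had 124 TPM in rat neuropil and 230 in somata (-0.89, and -0.67 in mouse), and Dnajb5 differed by -0.73 in rat and -0.83 in mouse. In mouse Dnaja4 (-0.72), Dnajc2 (-0.66) and Hspb3 (-0.91) were also lower in neuropil. In rat Hspg2, at 7.69 against 1.98 TPM, and Hspa12b, at 8.55 against 3.62, were the other higher ones.

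**Figure D4:**
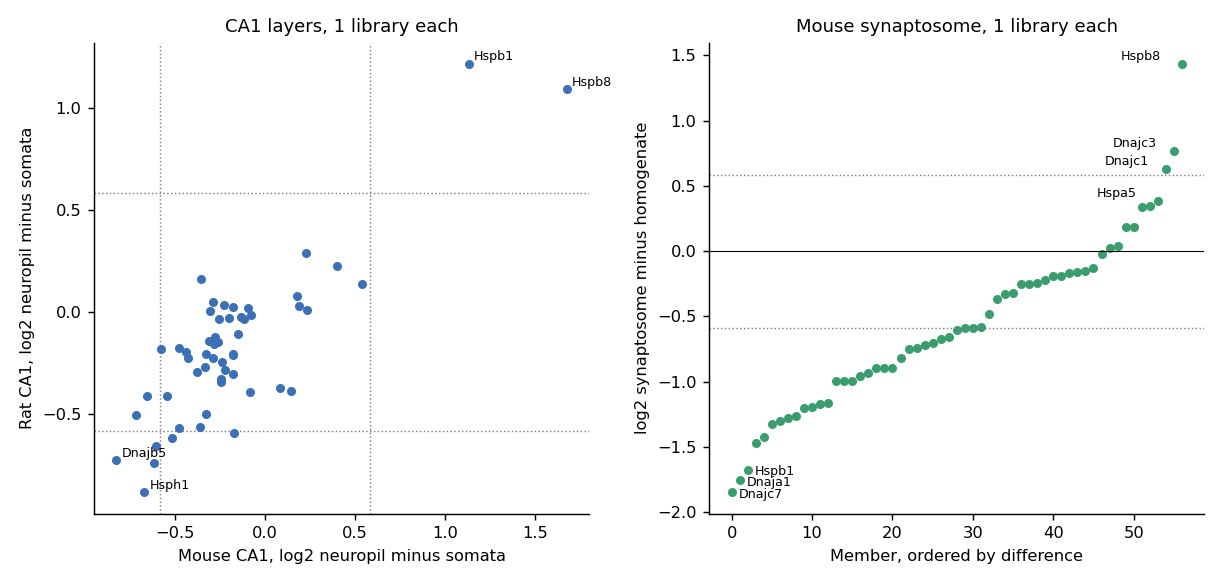
Left, log2 difference of neuropil minus somata in mouse (x axis) and rat (y axis) CA1, 1 point per member; right, log2 difference of synaptosome minus homogenate in mouse, members ordered by value; dotted lines mark 1.5-fold. Hspb8 and Hspb1 lie alone at the upper right of the left plot, and 31 of 57 members lie below the lower line on the right.

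Circular RNAs of member hosts were few and came mainly from 1 gene. The 70 mouse circles held 1050 reads, 0.260% of all circular reads, while they were 0.246% of the circles in the table. The 56 rat circles held 143 reads, 0.171% of the reads and 0.310% of the circles. In mouse 8 circles had 20 reads or more and 62 had fewer, and no rat circle reached 20. Dnajc1 led with 579 reads in 11 circles, followed by Dnajc6 with 95 in 3, Hspa14 with 82 in 1, Hspa4 with 73 in 11 and Hspa4l with 69 in 14. Rat order differed, with Dnajc13 at 27 reads, Hspa4 at 23, Hspa4l at 22 and Dnajc1 at 16. Circles of 1 host can share exons and are not independent.

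The main Dnajc1 circle (chr2:18206250-18230576, build mm9, minus strand, 9 exon blocks) had 416 reads in 21 libraries. At E18 it had 20 and 16 reads and at P30 36 and 38, which is 10.4 ± 0.64 and 22.0 ± 1.66 RPM, the authors' read unit scaled to library total (SD, n = 2 each). P1 had 9.55 and 13.1 RPM, overlapping E18, and P10 had 12.1 and 15.2. The P30 libraries were above those of the other ages, and the log2 difference from E18 was 1.04 (limma adjusted p = 0.0459, edgeR adjusted p = 0.0826). All circles together also rose, from 11493 and 10826 RPM at E18 to 17782 and 18414 at P30, and the part of this in the difference was not tested. In the CA1 layers the Dnajc1 circle had 43 reads in neuropil and 35 in somata, or 46.6 and 32.4 RPM, where all circles together had 26416 and 12909 RPM. In the tissues this circle had 3, 2 and 12 reads in brain, 3, 3 and 11 in testis and at most 3 in any library of heart, liver or lung. Linear Dnajc1 encodes a membrane protein of the ER.

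The 5-block circle of Dnajc6 (chr4:101285467-101289470, mm9, plus strand) had 66 reads, with 2, 2 and 5 in the brain libraries and none in the 12 libraries of the other tissues (log2 difference 2.24). Among the tissues it passed the filter only through the brain libraries, so no p-value is given. Its reads lay in the same tissue as its linear RNA. The Hspa14 circle (chr2:3413836-3420057, mm9, minus strand, 8 blocks) had 82 reads, with 7, 2 and 3 in brain, 1, 3 and 3 in testis and none in heart. A 17-block circle of Hspa4l (chr3:40554597-40585619) had 19 reads, all in testis, at 5, 3 and 11 (2.49), the tissue in which linear Hspa4l was highest. This circle passed the filter only through the testis libraries, so again no p-value is given. The circle that runs from the same start to 40593368 had 10 reads, also all in testis.

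Over the circles tested, limma called 5 of 15 member circles higher in brain and 2 lower, beside 47.7% and 2.82% of all circles, and edgeR on the recovered reads called 5 and 0, beside 52.6% and 0%. In testis limma called 2 and 1, beside 13% and 5.49%, and edgeR 3 and 0, beside 16.3% and 0.536%. A circle needed reads in 3 of the 15 tissue libraries, and each tissue has 3. The 5-block Dnajc6 circle and both Hspa4l circles named above therefore entered only through the tissue where they had reads. These tissue counts are not read as support. Leaving out the 14-week testis library left no call in testis, but it also takes both Hspa4l circles below the filter. The lower calls in brain were lost without any 1 of the brain or testis libraries. Between P30 and E18 limma called 3 of 38 higher and 2 lower, beside 6.27% and 1.44%, and edgeR 0 and 0, beside 1.51% and 0.218%, with 3 at an unadjusted p under 0.05. All 5 limma calls were lost without any 1 of the E18 or P30 libraries, and those other than Dnajc1 rested on 2 reads each. A circle needed reads in 2 hippocampal libraries, so these circles of 2 reads passed the filter only through the age where they were high. Their calls are not read as support, and without a library of that age their loss was fixed by the filter. After bicuculline neither tool called any of 8 rat circles, with 1 at an unadjusted p under 0.05 in limma and 0 in edgeR, while limma called 6.72% of all circles higher and 3.35% lower, and edgeR 0% and 0%.

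**Figure D5:**
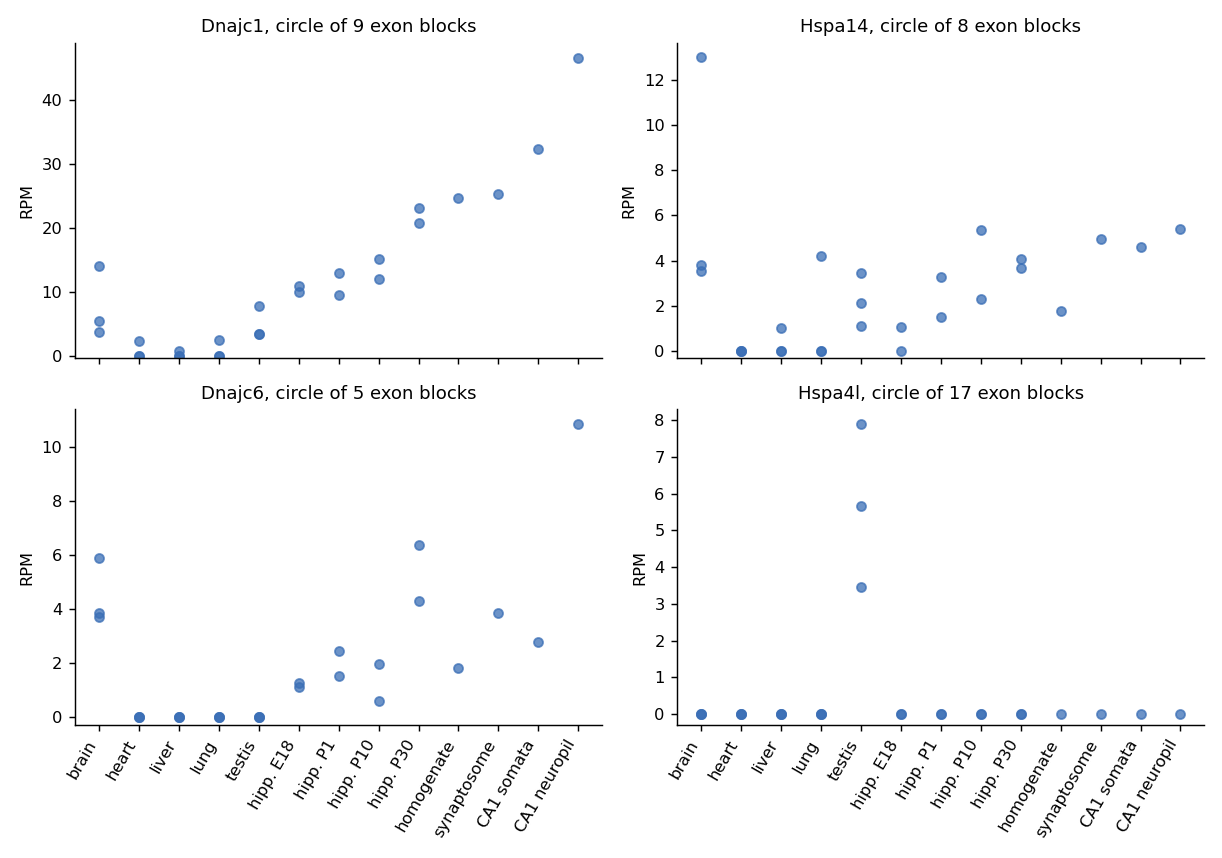
RPM of the circle with most reads from Dnajc1, Hspa14, Dnajc6 and Hspa4l, 1 point per mouse library, by tissue, hippocampal age and compartment. The Dnajc1 circle is highest in CA1 neuropil at 46.6 RPM, and the Hspa4l circle has reads in testis and in no other group.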

How the data were processed

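RNA was extracted with TRIZOL per the labels' protocols. The authors deposited gene tables in TPM, and circular RNA tables in RPM, in which every library's values were whole multiples of 1 read (100% of mouse and 99.8% of rat values within 0.1 of a whole number). Tools listed, without their roles, in the submitters' processing notes were TopHat2 2.0.6, Cufflinks 2.2.1 and CASAVA 1.8.2, with builds mm9 and rn5. How strands, multiply mapped reads and circles were counted was not given in the sources used here. Each circle's exon block number is the authors' deposited value.

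Genes at 1 TPM or more in 3 of 15 tissue libraries, or in 2 hippocampal or culture libraries, were tested on log2(TPM + 1) with limma 3.58.1 (trend, two-sided) in R 4.3.3, with Benjamini-Hochberg adjustment over all genes tested at 0.05. A tissue was set against the mean of the other 4, and all 4 hippocampal ages shared 1 fit. Log2 differences are on that scale and understate changes of low genes. Circles were tested with limma on log2(RPM + the median value of 1 read) and, on recovered reads, with the quasi-likelihood test of edgeR 4.0.16. The fits were tested on simulated data. Single-library pairs took genes at 5 TPM or more in either library and had no test. The poly(A) brain library and the long-read P30 sample entered no comparison.

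Members, pathway lists and named genes were chosen with earlier results of these data known. Named genes were 24 family members set by function, the 6 largest called differences each way in a tested comparison at 5 TPM or more, the 4 highest and lowest ratios in a pair at 10 TPM or more, and circles of 20 reads or more. The testis circles of Hspa4l, and further genes given to show a role, were named after their values were seen. Alternatives were other pseudocounts, filters, scalings, folds, tools, a replicate block and leaving out each library, with the 20-week libraries alone added after seeing the data.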

Additional observations from a re-analysis of the deposited data

How the results depend on the processing

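The scale mattered most. With equal medians the members called higher and lower were 12 and 37 in brain, 26 and 24 in liver and 5 and 48 in lung, 19 were lower at P30, and 6 were higher in the synaptosome. The matching counts over all genes are given above, except for the synaptosome. Differences that changed sign with equal medians were Hspd1 (-0.60), Hspe1 (-0.23) and Dnaja1 (-0.11) in brain, Hspa8 (1.24), Hsp90ab1 (1.15), Hsph1 (0.39), Dnajb9 (1.10) and Dnajc5 (0.29) in liver, and Hsp90ab1 (-0.24), Hsp90b1 (-0.31), Hsph1 (-0.72), Dnajb9 (-0.75) and Dnajc5 (-0.32) in lung. Dnajc6 in lung was 0.047 with a pseudocount of 0.1. The causes of these changes were not tested beyond the scaling itself. At 2-fold 1 member was higher and 13 were lower in the synaptosome, and 0 were lower in mouse or rat CA1 neuropil. At a minimum of 1 TPM 5 were higher in mouse CA1 neuropil. Shares of all genes at that fold and minimum are not given, so these counts show only how far the member counts moved. For circles, edgeR gave 0 lower in brain and testis and 0 and 0 at P30, a pseudocount 5 times larger gave 0 lower in testis, and testing every circle seen in 1 library gave 8 and 0 in brain, 4 and 0 in testis and 0 and 0 at P30.

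Leaving out 1 library gave 28 to 31 members higher and 27 to 32 lower in testis, 29 to 34 and 18 to 20 in brain, 25 to 28 and 23 to 28 in heart, 7 to 10 and 49 to 53 in liver, 16 to 22 and 18 to 26 in lung, 21 to 28 and 7 to 13 at P30, and 0 to 2 and 0 to 1 after bicuculline. For circles it gave 4 to 5 and 0 to 2 in brain, 0 to 3 and 0 to 1 in testis, 0 to 3 and 0 to 2 at P30, and 0 and 0 after bicuculline. Where an arm was left with 1 library, it was assumed to vary like the other groups.

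Groups shared replicate numbers only. With a replicate block 10 members were called higher and 10 lower after bicuculline. These counts are given without the share of all genes and so are not read as a result about the members. Deviations of same-numbered libraries correlated at 0.588 in the 2 culture pairs and at 0.0555 to 0.351 among the hippocampal pairs. With 2 libraries per group the deviations are equal and opposite, so both pairs of any 2 groups give the same value by construction. These values do not show pairing by design. The block moved no other count of member genes by more than 1.5 times. With few reads per circle, differences between circles were mostly not detectable at this depth.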

Other observations

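The 14-week library stood apart from both 20-week libraries in the same direction in all 5 tissues for 12 members. It was above them for Dnajb12, Dnajc4, Dnajc17 and Hspbp1, 4 of 75 members beside 5.92% of all genes, and below them for Dnaja1, Dnaja2, Dnaja3, Dnajb4, Dnajc11, Dnajc25, Hspb11 and Hspe1, 8 of 75 beside 3.28%. Hspbp1, an exchange factor that acts on Hsp70, had the widest gap in brain, at 136 TPM at 14 weeks against 19.3 and 14.2 at 20 weeks. In testis it had 26.8 TPM against 13.1 and 9.14. Age and the preparation of those libraries cannot be told apart.

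The poly(A) library of 14-week brain, which entered no comparison, had 127 circular reads, none of them from a member host, and members took 0.972% of its TPM.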
